A study of Homo sapiens with 24 samples.

Results

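Depletion of the methyl-lysine reader HP1γ was compared with depletion of the methyltransferase GLP in Nalm6 cells, an established human line of B-cell precursor acute lymphoblastic leukemia. The comparison took all 6 libraries of cells expressing shHP1γ against all 6 libraries of cells expressing shGLP, which together are 12 of the 24 libraries of the series. The libraries were assigned to the 2 sides by their labels, without use of their values. Each shRNA was delivered by lentivirus, and the methods name 1 construct for each target and a puromycin-resistant cell population, so that an effect of the hairpin and an effect of its target cannot be told apart. The cells received 100 nM dexamethasone (dex), a synthetic glucocorticoid, or the ethanol vehicle for 8 h, and each of the 4 conditions had 3 biological replicates prepared on different days. Cells expressing the non-specific shNS and cells expressing shG9a, under the same treatments, gave 6 further libraries each and served as reference points.

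GLP (gene EHMT1) and its partner G9a (gene EHMT2) are methyltransferases that place mono- and dimethyl marks on lysine 9 of histone H3 and also methylate lysines in other proteins, themselves included. HP1γ (gene CBX3) has a chromodomain that reads methylated lysine 9 of histone H3 and the equivalent methylated lysine of G9a and GLP. The complex of these proteins is a classical repressor of transcription, and the study at hand treats it as a coactivator of the glucocorticoid receptor. The clusters of KRAB zinc finger genes on human chromosome 19 are a known home of HP1 proteins and of methylated lysine 9, and the KRAB zinc finger proteins themselves recruit TRIM28 and SETDB1, which lay down the same mark at repeats.

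Many ZNF genes on chromosome 19 separated the 2 depletions. They were taken by symbol and position, and whether each encodes a KRAB domain was not checked. Of 121 tested transcripts of ZNF genes on chromosome 19, 52 were higher in shHP1γ cells than in shGLP cells and 1 was lower. ZNF134 stood at 113 CPM in shHP1γ cells and 37.9 CPM in shGLP cells, and ZNF626 at 8.95 and 0.975 CPM. In the other direction, shGLP cells held more RNA of CD180, RAG1, IRF8, LYZ and GZMA, genes of immune cells picked for their large differences. ZNF134, ZNF626 and these immune genes differed in the same direction in ethanol and in dex. No transcript had a difference that changed with treatment at an adjusted p of 0.05 or less, which does not show that the differences were equal. CPM here are counts scaled to library size after upper quartile adjustment of the libraries, and a difference is the log2 fold change of shHP1γ over shGLP, so that a positive value means more RNA in shHP1γ cells. All CPM are given with the SD over 6 libraries (3 in ethanol, 3 in dex) unless stated otherwise.

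Promoter sequence is shown for 4 of the zinc finger genes that carry the result: ZNF256 and ZNF134, which lie close together near the end of the long arm, and ZNF626 and ZNF681, which lie in the cluster next to the centromere. Each run is the 150 bases before the transcription start in RefSeq (GRCh38.p14), written in the direction of transcription, with the motif CCAAT or its reverse complement ATTGG in capitals. The windows are chr19:57947707-57947856 (minus strand) for ZNF256, chr19:57614092-57614241 (plus strand) for ZNF134, chr19:20661572-20661721 (minus strand) for ZNF626 and chr19:23758892-23759041 (minus strand) for ZNF681.
ZNF256: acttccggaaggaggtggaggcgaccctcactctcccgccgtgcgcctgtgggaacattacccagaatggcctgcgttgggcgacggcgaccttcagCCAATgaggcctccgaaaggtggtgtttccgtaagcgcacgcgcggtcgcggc
ZNF134: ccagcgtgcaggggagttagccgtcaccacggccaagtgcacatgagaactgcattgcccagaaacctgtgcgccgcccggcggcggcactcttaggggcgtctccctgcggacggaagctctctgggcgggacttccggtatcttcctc
ZNF626: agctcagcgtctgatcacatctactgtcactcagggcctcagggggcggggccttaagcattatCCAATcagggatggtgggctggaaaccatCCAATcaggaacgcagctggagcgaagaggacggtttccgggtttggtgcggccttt
ZNF681: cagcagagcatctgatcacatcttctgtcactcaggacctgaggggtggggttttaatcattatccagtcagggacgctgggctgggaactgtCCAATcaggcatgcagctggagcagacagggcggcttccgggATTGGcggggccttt

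The promoters of ZNF626 and ZNF681 had the same base at 91 of 150 positions (60.7%) when laid side by side without gaps, against 38 to 52 positions for the other 5 pairs of the 4 promoters. Their longest identical run was 13 bases. Over windows of 300 bases (250 before the start and 50 after it), CCAAT on either strand was present in 25 of 43 windows (58.1%) of chromosome 19 ZNF genes called higher in shHP1γ cells and in 33 of 58 windows (56.9%) of those not called higher, against 34.6% of all 35116 windows of the RefSeq table. Windows were found for 89.6% and 92.1% of the genes of these 2 groups. The shares of the 2 ZNF groups were close to each other, and both were above that of all windows. CpG dinucleotides numbered 19 per window (median) in the higher group and 20.5 in the rest.

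The depth of the 12 libraries ran from 9289533 to 13323421 counts (shHP1γ 9658677 to 13323421, shGLP 9289533 to 11109523), and 10167 transcripts of 9380 genes were tested, those that exceeded 1 CPM in 2 or more of the 24 libraries. Counts were held per RefSeq accession. The 16227 accessions of genes with 1 accession held 93.3% of all counts, while 73.6% of the 48292 accessions of genes with several were at 0 in every library. A gene with several RefSeq isoforms is therefore measured by few reads, and its level is not comparable with that of other genes. Replicate 1 of shHP1γ stood apart from replicates 2 and 3 in both treatments, with chi-squared values of 19.4 to 27.9 for each degree of freedom against 3.43 to 12.2 for the other replicate pairs of these 2 shRNAs. Named transcripts that lost their call when both libraries of shHP1γ replicate 1 were left out are given with their value without them. Replicate 2 of shG9a in dex also stood apart from its replicates and entered the shared estimate of the spread.

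In these counts the depleted genes could be checked only through reads specific to single isoforms. CBX3 transcript NM_016587 stood at 3.92 ± 0.398 CPM in shGLP cells and 2.62 ± 0.598 CPM in shHP1γ cells, a log2 difference of -0.59 (SE 0.157, adjusted p = 0.0152, edgeR quasi-likelihood test). It was lower in shHP1γ cells in 6 of 6 pairs of the same replicate and treatment, although 1 shGLP library (3.17 CPM) lay below the highest shHP1γ library (3.39 CPM). The other tested CBX3 transcript, NM_007276, differed by -0.18 (SE 0.171, adjusted p = 0.616). EHMT1 transcript NM_001354259 was at 2.59 ± 0.605 CPM in shGLP cells and 3.47 ± 0.403 CPM in shHP1γ cells, a difference of 0.43 that missed the threshold (SE 0.150, adjusted p = 0.0737) and was positive in 6 of 6 pairs. EHMT1 was 0.51 lower on the log2 scale in shGLP than in shNS cells (log2 difference -0.51, adjusted p = 0.0255). These counts do not measure how much of either protein was left. According to the study, immunoblot and RT-qPCR found G9a, GLP and HP1γ depleted efficiently in the cells used for sequencing. EHMT2 was not analysed here. The pre-B markers CD79A, IGLL1, RAG1, RAG2, MME, CD9 and CD38 were each above 1 CPM on average, and CD79B, DNTT, CD22 and CD24 were at 0 in all 12 libraries.

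Over both treatments, 1083 of the 10167 transcripts (10.7%), from 1066 genes, differed between shHP1γ and shGLP cells at an adjusted p of 0.05 or less. Of these, 581 (5.71% of those tested) were higher in shHP1γ cells and 502 (4.94%) lower. Most differences were small, with a median absolute log2 difference of 0.33 and 606 called transcripts under 1.3-fold. At 2-fold or more, 93 were higher in shHP1γ cells and 36 lower. The sign was the same in 6 of 6 pairs for 896 of the called transcripts. These 6 pairs come from 3 replicates in 2 treatments and are not independent of each other. The 6 shHP1γ values did not overlap the 6 shGLP values for 180 of those higher and 131 of those lower, whereas 340 of all tested transcripts (3.34%) had values that did not overlap. In ethanol alone 427 transcripts (4.2%) were called, and in dex alone 409 (4.02%). The count of 1083 was 600 when the replicate number was left out of the model and 429 without the replicate 3 libraries.

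The reference libraries placed most of these transcripts on a scale between the 2 depletions. The mean level in shG9a cells lay between the means of shGLP and shHP1γ cells for 63.3% of the transcripts higher in shHP1γ cells and 61.4% of those lower, against 29.8% of all tested transcripts. The mean in shNS cells lay between them for 66.6% and 64.7%, against 34.2% of all tested. Because these transcripts were picked for a wide gap between the 2 means, more of them hold the mean of another group inside that gap by construction, and no test is attached to these shares. Relative to shNS, depletion of HP1γ raised 626 transcripts (6.16%) and lowered 394 (3.88%), and depletion of GLP raised 589 (5.79%) and lowered 430 (4.23%). These comparisons share the shNS libraries, so their values are set side by side for single genes and not compared as lists.

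**Figure D1:**
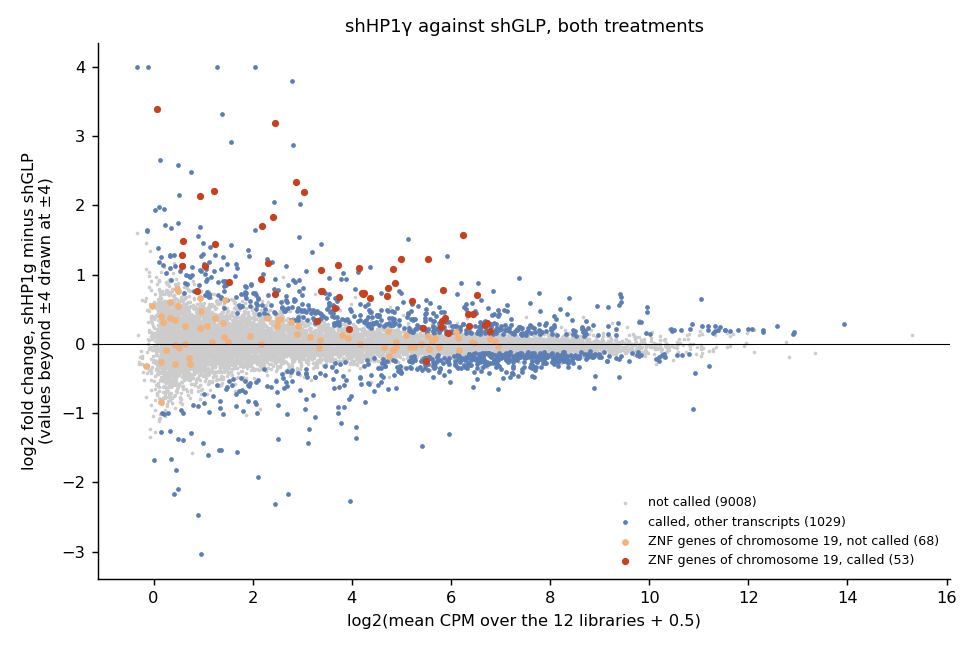
Log2 difference of shHP1γ over shGLP for each of the 10167 tested transcripts (vertical axis, values beyond 4 drawn at 4) against log2 of the mean CPM over the 12 libraries plus 0.5 (horizontal axis). Called transcripts (adjusted p of 0.05 or less) are blue and the rest grey, and ZNF transcripts of chromosome 19 are red where called, with 52 higher and 1 lower, and orange where not called.

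Among transcripts with a ZNF symbol, 272 were tested and 69 (25.4%) were higher in shHP1γ cells, against 5.71% of all transcripts, while 9 (3.31%) were lower. On chromosome 19, 52 of 121 transcripts (43%), from 48 genes, were higher, with a median log2 difference of 0.314 over all 121, and 96 of the 121 differences were positive. On the other chromosomes 17 of 150 ZNF transcripts (11.3%) were higher and 8 (5.33%) lower, with a median of 0.036. The median over all tested transcripts was -0.002. The number of chromosome 19 ZNF transcripts called higher ran from 39 to 56 over every alternative setting and every left-out library, and the number called lower from 0 to 2.

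Neighbours of these genes without a ZNF symbol were counted as well. Of 86 other transcripts within 50 kb of a ZNF gene, 17 (19.8%) were higher in shHP1γ cells and 0 lower. Of 542 farther away, 43 (7.93%) were higher and 11 lower. The members of the first group included ZFP28, itself a KRAB zinc finger gene under another symbol, at a difference of 1.44 (adjusted p = 1e-09), and the long noncoding RNAs LINC00665 (1.16, adjusted p = 0.000409) and LINC01535 (1.65, adjusted p = 2.57e-07). C19orf18 differed by 1.95 (adjusted p = 0.0038) and ZNF529-AS1 by 1.43 (adjusted p = 1.16e-05), where ZNF529-AS1 is antisense to a zinc finger gene and reads of the 2 strands cannot be told apart because strand handling is not given. These neighbours except LINC01535, the genes ZNF350, ZNF527, ZNF71, ZNF45, ZNF675, ZNF93, ZNF614 and ZNF443, and, further on, ERRFI1, EGR4, OAS3, MX2, STC2 and GBP4 were picked for description after their values were seen. Chromosome 19 as a whole had 112 of 749 transcripts (15%) higher and 12 (1.6%) lower, whereas 2.94% to 7.72% were higher on each other chromosome.

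**Figure D2:**
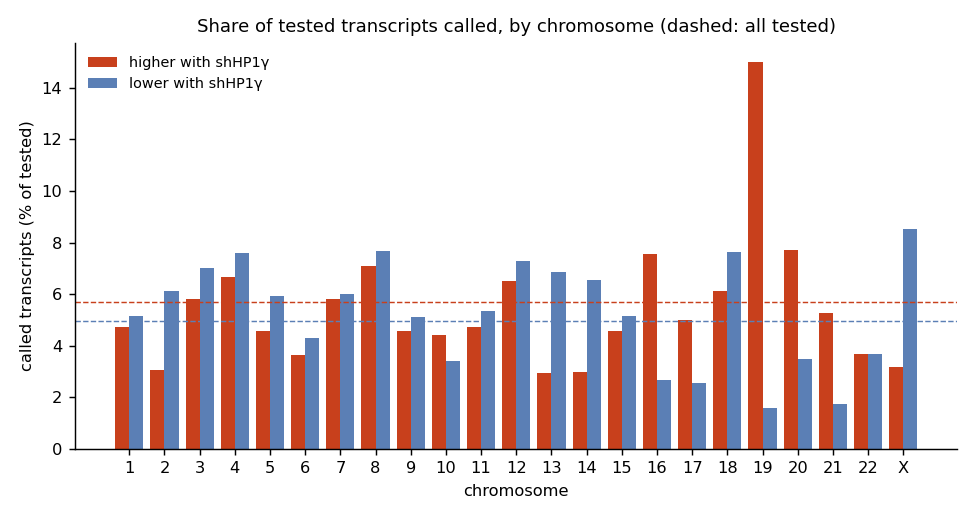
Percentage of tested transcripts called higher or lower in shHP1γ than in shGLP cells (adjusted p of 0.05 or less) on each chromosome, with dashed lines at the shares over all tested transcripts, 5.71% higher and 4.94% lower. Chromosome 19 stands out with 15% higher and 1.6% lower.

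The higher ZNF transcripts were spread over several clusters of the chromosome. In GRCh37 coordinates, 14 of 20 tested ZNF transcripts between 20 and 25 Mb, next to the centromere, were higher (median difference 0.976). On the long arm 7 of 10 were higher between 35 and 40 Mb (median 0.650), 4 of 11 between 40 and 45 Mb (median 0.228), 10 of 17 between 50 and 55 Mb (median 0.637) and 12 of 33 between 55 and 60 Mb (median 0.182). On the short arm, 2 of 16 between 10 and 15 Mb were higher, and the lower transcript, ZNF443, lay there (difference -0.24, SE 0.057, adjusted p = 0.0061, 48.8 ± 7.18 CPM in shGLP and 41.1 ± 4.05 CPM in shHP1γ cells). These shares were not tested against each other.

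Of the 52 higher transcripts, 39 had shHP1γ and shGLP values that did not overlap, 47 had the same sign in 6 of 6 pairs, and 35 belonged to genes with 1 accession. Values did not overlap for 3.34% of all tested transcripts and for 180 of all 581 called higher. The sign was the same in 6 of 6 pairs for 896 of all 1083 called. The 52 were called from these same values, so the counts are not separate support. Their differences ran from 0.158 to 3.40, with a median of 0.769. In ethanol 43 of them were called (median 0.804) and in dex 40 (median 0.817). Zinc finger genes of such clusters are similar in sequence, and how reads that map to several of them were handled is not given in the sources used here. A value of 1 gene may therefore include reads of its neighbours.

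The protein of ZNF626 is a zinc finger protein of the cluster at 20 Mb (GRCh37 chr19:20802745-20844402). Its transcript NM_001076675 stood at 1.13, 1.29 and 0.852 CPM in ethanol and 0.742, 1.09 and 0.746 CPM in dex in shGLP cells, and at 9.67, 9.72 and 9.09 CPM in ethanol and 9.21, 7.73 and 8.29 CPM in dex in shHP1γ cells. Every shHP1γ library was far above every shGLP library. The log2 difference was 3.19 (SE 0.170, adjusted p = 6.32e-12), and shNS (4.51 CPM) and shG9a cells (2.01 CPM) lay between. Against shNS, ZNF626 was higher after HP1γ depletion (0.98, adjusted p = 1.76e-05) and lower after GLP depletion (-2.21, adjusted p = 1.04e-08). ZNF626 thus departed from shNS in both directions.

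ZNF256 (GRCh37 chr19:58452201-58459074) lay close to its shNS level in shHP1γ cells and below it in shGLP cells. It stood at 3.8, 2.59 and 1.7 CPM in ethanol and 1.59, 1.81 and 2.24 CPM in dex in shGLP cells. In shHP1γ cells it stood at 11.1, 15 and 10.8 CPM in ethanol and 9.39, 11.2 and 11.2 CPM in dex. The groups did not overlap, and the difference was 2.34 (SE 0.150, adjusted p = 1.26e-10). The shNS mean of 9.93 CPM was close to that of shHP1γ cells, with a difference of shHP1γ over shNS of 0.21 (adjusted p = 0.329), while shGLP was 2.13 below shNS on the log2 scale (log2 difference -2.13, adjusted p = 1.07e-09). The shG9a mean was 5.75 CPM (log2 difference from shNS -0.79, adjusted p = 0.00016).

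ZNF134 (GRCh37 chr19:58125601-58136092) was among the ZNF genes measured with the most reads. The shGLP libraries held 39, 38.4 and 38.6 CPM in ethanol and 35.9, 41.1 and 34.3 CPM in dex. The shHP1γ libraries held 102.0, 114.3 and 122.4 CPM in ethanol and 110.1, 118.4 and 109.4 CPM in dex. The lowest shHP1γ library was well above the highest shGLP library, and the difference of 1.58 (SE 0.062) had an adjusted p of 3.93e-14, the smallest of the comparison and shared with CD180. Levels in shNS (90.7 CPM) and shG9a (62.6 CPM) again lay between the 2 depletions, and ZNF134 was higher than shNS after HP1γ depletion (0.32, adjusted p = 0.000818).

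Other members were lower in shGLP cells at higher and lower levels of expression. ZNF329 stood at 2.78 ± 0.855 CPM in shGLP and 12.6 ± 1.62 CPM in shHP1γ cells (2.19, adjusted p = 2.31e-11), with shNS at 11.2 and shG9a at 5.97 CPM. ZNF681 stood at 27.8 ± 3.67 and 64.7 ± 2.66 CPM (1.22, SE 0.070, adjusted p = 2.31e-11), and ZNF585B at 18.6 ± 1.76 and 43.6 ± 5.66 CPM (1.22, SE 0.086, adjusted p = 5.78e-10). ZNF737 differed by 1.08 (17.9 and 38 CPM), ZNF726 by 1.84 and ZNF470 by 1.70. Smaller differences with values that did not overlap were found for ZNF350 (1.14), ZNF527 (1.10), ZNF93 (0.77), ZNF614 (0.70), ZNF71 (0.62), ZNF45 (0.44) and ZNF675 (0.43). ZNF614 was among the best measured of these, at 69.7 ± 7.12 CPM in shGLP and 113 ± 4.48 CPM in shHP1γ cells. Off chromosome 19, ZNF10, a KRAB zinc finger gene on chromosome 12, stood at 12.8 ± 1.73 CPM in shGLP and 27.7 ± 3.56 CPM in shHP1γ cells (1.12, SE 0.073, adjusted p = 1.53e-10).

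Each depletion was also set against shNS. Over the same 121 chromosome 19 ZNF transcripts, shGLP cells had 46 (38%) lower than shNS and 1 higher, with a median log2 difference of -0.264. Of all tested transcripts, 4.23% were lower and 5.79% higher in shGLP cells. In shG9a cells 20 (16.5%) were lower and 4 higher, with a median of -0.100, where 7.24% of all tested transcripts were lower and 6.36% higher. In shHP1γ cells 2 (1.65%) were lower and 15 (12.4%) higher, with a median of 0.075, where 3.88% of all tested transcripts were lower and 6.16% higher. Over the 52 transcripts that separated the 2 depletions, the medians were -0.698 for shGLP, -0.220 for shG9a and 0.128 for shHP1γ, all against the same shNS libraries. Of the 52, 41 were called against shNS after GLP depletion, 18 after G9a depletion and 13 after HP1γ depletion. The 52 were selected for more RNA in shHP1γ than in shGLP cells. Their shGLP and shHP1γ medians and calls against shNS are therefore partly set by that selection, unlike those over all 121. The shG9a mean lay between the other 2 means for 51 of these 52, which were selected for a wide gap, and for 71 of all 121 (58.7%).

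**Figure D3:**
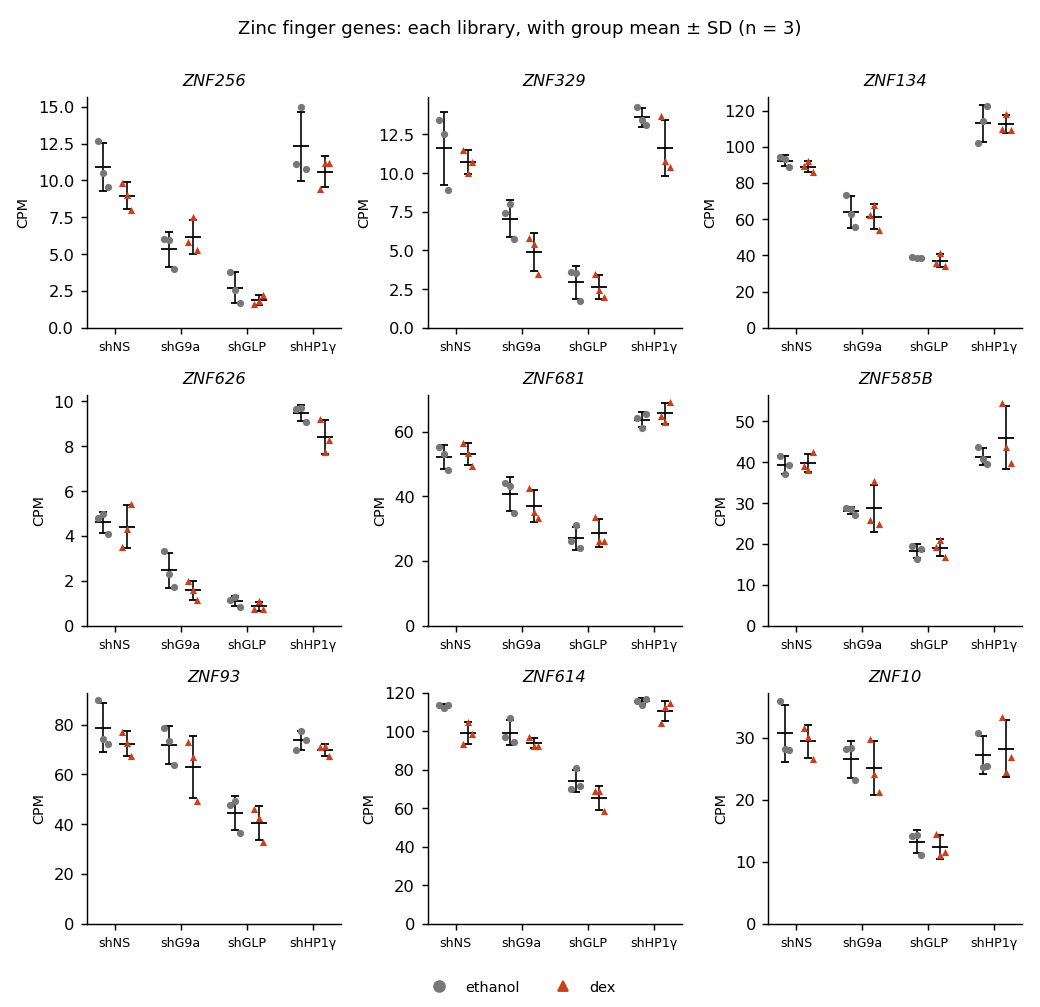
Levels of 9 zinc finger genes in CPM (vertical axes) in each library of shNS, shG9a, shGLP and shHP1γ cells, with ethanol as circles, dex as triangles and the mean ± SD of 3 replicates as a bar with whiskers. In each panel the shGLP mean is the lowest and the shG9a mean lies between those of shGLP and shHP1γ, and ZNF10 is the panel off chromosome 19.

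Several transcripts outside the zinc finger genes were also higher in shHP1γ cells, and many of the largest were noncoding or of a gene not typical of lymphoid cells. LINC01602, a long noncoding RNA on chromosome 8, stood at 6.97 to 8.03 CPM in the 6 shHP1γ libraries and had 0 counts in 5 shGLP libraries, which gave a level at least 25.2-fold higher in shHP1γ cells when 3 counts per library were taken as the floor. LINC00861 stood at 0.843 ± 0.429 CPM in shGLP and 12.1 ± 6.73 CPM in shHP1γ cells (3.80, adjusted p = 3.68e-10), and its 2 highest values, 18.9 and 22.2 CPM, were those of shHP1γ replicate 1. Without both replicate 1 libraries of shHP1γ its difference was 3.47 (adjusted p = 4.34e-09). Of 721 tested transcripts with a LINC or antisense name, 64 (8.88%) were higher and 15 (2.08%) lower, against 5.71% and 4.94% of all tested. Their median was 0.060. The count of 64 fell to 26 without the replicate 1 libraries and to 29 without the replicate 3 libraries, and was 35 without the replicate block.

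Some of these RNAs were near their shNS level in shGLP cells, and others in shHP1γ cells. GRID1, which encodes a glutamate receptor subunit of the delta family, stood at 0 to 0.653 CPM in shGLP and 3.19 to 4.55 CPM in shHP1γ cells (3.32, SE 0.308, adjusted p = 5.05e-08), with an shNS mean of 0.128 CPM. TEX19, a germline gene that restrains retrotransposons, was at 0.252 ± 0.131 CPM in shGLP, 0.245 CPM in shNS and 1.57 ± 0.177 CPM in shHP1γ cells (2.59, adjusted p = 3.92e-06). LINC01694 was at 35.2 ± 3.06 CPM in shGLP, 31.6 CPM in shNS and 84.4 ± 8.18 CPM in shHP1γ cells (1.26, SE 0.062, adjusted p = 1.51e-12). For these 3 the shHP1γ cells departed from shNS, with differences of 4.76, 2.65 and 1.42, and shGLP cells did not pass the test against shNS. For GRID1 the difference of shGLP from shNS was 1.44 (SE 0.588, adjusted p = 0.142) at 0 to 7 counts per shGLP library. Its missed call at such counts does not show a level near that of shNS. TEX19 was the only called member of 12 tested germline and cancer-testis transcripts. By contrast MT1H, a metallothionein that binds zinc, stood at 112 ± 9.98 CPM in shGLP, 219 ± 40.9 CPM in shHP1γ and 217 CPM in shNS cells (0.95, adjusted p = 1.71e-08).

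Immediate early genes, which growth factor signalling induces within minutes, had 6 of 24 tested transcripts (25%) higher and 0 lower in shHP1γ cells. Of all tested transcripts, 5.71% were higher and 4.94% lower. The median of the list was 0.027. PHLDA1, a pleckstrin homology protein induced by such signals, was at 20.7, 20.3 and 27.8 CPM in ethanol and 13.1, 12.6 and 13 CPM in dex in shGLP cells, and at 52.7, 54.7 and 86.5 CPM in ethanol and 35.2, 33.5 and 46.1 CPM in dex in shHP1γ cells. Its groups did not overlap (1.52, SE 0.100, adjusted p = 1.66e-10). JUN, a subunit of AP-1, differed by 0.73 (51.6 ± 9.83 and 87.6 ± 32.3 CPM, adjusted p = 1.65e-06), the MAP kinase phosphatase DUSP5 by 0.76, the transcription factor EGR4 by 1.00 and IER2 by 0.27. The sixth was KLF2, a quiescence factor of lymphocytes, at 1.03 (adjusted p = 0.0247), whose shHP1γ levels in dex were 80.6 CPM in replicate 1 and 22.1 and 21.9 CPM in replicates 2 and 3. Without both replicate 1 libraries of shHP1γ, KLF2 differed by 0.25 (adjusted p = 0.389), DUSP5 by 0.35 (adjusted p = 0.106) and EGR4 by 0.88 (adjusted p = 0.0749), while JUN kept a difference of 0.55 (adjusted p = 2.4e-06). The list then had 3 members higher and 2 lower.

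Genes of the amino acid response are induced through ATF4 when amino acids run short. Of their 39 tested transcripts, 5 (12.8%) were higher and 0 lower in shHP1γ cells, against 5.71% and 4.94% of all tested. The median was 0.126, with 30 positive differences. SESN2, a leucine sensor that restrains mTORC1, stood at 136.6, 120.3 and 109.4 CPM in ethanol and 108.3, 100.2 and 93.2 CPM in dex in shGLP cells, and at 153.2, 179.3 and 179.4 CPM and 145.0, 141.6 and 138.3 CPM in shHP1γ cells. Its difference was 0.49 (SE 0.058, adjusted p = 1.65e-06) without overlap. A noncoding transcript of SARS, the cytosolic seryl-tRNA synthetase gene, differed by 0.59 (adjusted p = 7.16e-09), and PSPH, the last enzyme of serine synthesis, by 0.48 (adjusted p = 5.91e-05). STC2 (0.22, adjusted p = 0.0499) and 1 transcript of the glutamine transporter SLC1A5 (0.45, adjusted p = 0.0445) were near the threshold. Without both replicate 1 libraries of shHP1γ, 13 members were higher.

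Ribosomal protein genes differed by small amounts. Of 80 tested transcripts, 20 (25%) were higher and 1 (1.25%) lower, against 5.71% and 4.94% of all tested. The median was 0.144, with 61 positive differences. RPS3A stood at 1273 ± 129 CPM in shGLP and 1488 ± 180 CPM in shHP1γ cells (0.22, SE 0.038, adjusted p = 0.000283), RPL29 differed by 0.26 and RPL3 by 0.27, each in 6 of 6 pairs. The count rested on the replicates. Of the 80, 5 were higher without the replicate 1 libraries, 33 without replicate 2, 1 without replicate 3, 11 without both shHP1γ replicate 1 libraries, 35 without shG9a dex replicate 2 and 1 without the replicate block.

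A few further genes higher in shHP1γ cells concern the proteins under study. KDM4A, a demethylase of lysine 9 of histone H3, stood between 234.6 and 250.7 CPM in the shGLP libraries and between 270.5 and 297.2 CPM in the shHP1γ libraries, a difference of 0.22 (SE 0.039, adjusted p = 0.000373) and the only call among 9 tested demethylase transcripts. Of 27 tested transcripts of writers of this mark and of HP1 partners, the only call was the depleted CBX3. FKBP4, the FKBP52 cochaperone of the glucocorticoid receptor, was at 23.5 ± 3.21 CPM in shGLP and 39.3 ± 6.79 CPM in shHP1γ cells (0.74, SE 0.080, adjusted p = 5.17e-07). ERRFI1, a feedback inhibitor of the EGF receptor, differed by 0.92 (adjusted p = 4.71e-06).

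In the other direction, 502 transcripts were lower in shHP1γ than in shGLP cells. The one with the smallest adjusted p was CD180, a Toll-like receptor homolog on the surface of B cells. It stood at 102.6, 91.7 and 85.8 CPM in ethanol and 92, 87.7 and 68.1 CPM in dex in shGLP cells. In shHP1γ cells it stood at 44.4, 37.7 and 34.9 CPM in ethanol and 36.7, 33.8 and 27.9 CPM in dex. Every shGLP library was above every shHP1γ library, and the difference was -1.30 (SE 0.052, adjusted p = 3.93e-14). The shNS mean was 38.6 CPM, so that CD180 was higher than shNS after GLP depletion (1.24, adjusted p = 9.29e-14) and not called after HP1γ depletion (-0.06, adjusted p = 0.609) or G9a depletion (-0.14, adjusted p = 0.0986). LY86, which encodes MD-1, the surface partner of CD180, had the same arrangement at 26.1 ± 2.7 CPM in shGLP, 16.4 ± 3.48 CPM in shHP1γ and 17.9 CPM in shNS cells (-0.68, SE 0.092, adjusted p = 1.64e-05).

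RAG1, the recombinase that cuts immunoglobulin genes, was among the most abundant transcripts of this group. The shGLP libraries held 2142.4, 2552.9 and 2541.6 CPM in ethanol and 2438.7, 2555.7 and 2604.1 CPM in dex, and the shHP1γ libraries 1419.9, 1223.1 and 1235.3 CPM in ethanol and 1607.9, 1072.2 and 1196.5 CPM in dex. The groups did not overlap (-0.94, SE 0.075, adjusted p = 3.67e-09). Means were 1616 CPM in shNS and 2291 CPM in shG9a cells, and RAG1 departed from shNS upwards after GLP depletion (0.62, adjusted p = 2.51e-06) and G9a depletion (0.50, adjusted p = 5.59e-05) and downwards after HP1γ depletion (-0.32, adjusted p = 0.00577). Of 11 tested transcripts of V(D)J recombination factors, RAG1 and the Ku subunit XRCC5 (-0.15, adjusted p = 0.0027) were lower and 0 higher, with a median of 0.092. The lower share was 18.2%, against 4.94% of all tested transcripts.

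IRF8, a transcription factor of B cells and mononuclear phagocytes, stood at 23.6 ± 2.52 CPM in shGLP, 9.27 ± 2.43 CPM in shHP1γ, 10 CPM in shNS and 9.15 CPM in shG9a cells. Its shGLP values (21.3 to 28.5 CPM) lay above all shHP1γ values (6.29 to 13.2 CPM), a difference of -1.36 (SE 0.116, adjusted p = 1.21e-08). Among 24 tested transcripts of B-lineage transcription factors, ETV6 (-0.30, adjusted p = 0.000153) and the OCT coactivator POU2AF1 (-0.27, adjusted p = 0.00063) were also lower, KLF2 was higher as above, and the median was 0.032. In this list 12.5% were lower and 4.17% higher, against 4.94% and 5.71% of all tested transcripts. Of 15 transcripts of pre-B-cell receptor signalling, 3 (20%) were lower and 0 higher, against the same shares of all tested (median -0.160). The 3 were the PI3K adaptor PIK3AP1 (-0.32, adjusted p = 0.000304), the inhibitory receptor CD72 (-0.42, adjusted p = 0.000988) and VPREB3 (-0.34, adjusted p = 0.041). VPREB3 was not called without both shHP1γ replicate 1 libraries (-0.13, adjusted p = 0.331) or without the replicate block (adjusted p = 0.326), and CD72 was not called without the replicate block (adjusted p = 0.116).

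LYZ, which encodes the lysozyme of myeloid cells, was at 23, 31.2 and 23.3 CPM in ethanol and 23.3, 27.8 and 19.4 CPM in dex in shGLP cells, and at 10.5, 3.47 and 3.48 CPM in ethanol and 8.15, 4.17 and 2.36 CPM in dex in shHP1γ cells. GZMA, a granule protease of cytotoxic lymphocytes, was at 6.06 to 10.9 CPM in shGLP and 0.624 to 3.29 CPM in shHP1γ cells. Neither gene overlapped between the groups, with differences of -2.27 for LYZ (SE 0.206, adjusted p = 3.63e-08) and -2.32 for GZMA (SE 0.253, adjusted p = 6.33e-07), and in both genes the 2 highest shHP1γ values were those of replicate 1. Without those 2 libraries the differences were -2.83 and -3.19. LYZ stood at 3.29 CPM in shNS and 5.94 CPM in shG9a cells, and GZMA at 1.34 CPM in shNS and 6.87 CPM in shG9a cells. Both genes, like RAG1, were above shNS after depletion of either methyltransferase. For GZMA the differences were 2.76 (adjusted p = 1.13e-07) for GLP and 2.48 (adjusted p = 1.18e-06) for G9a. For LYZ they were 2.96 (adjusted p = 2.02e-09) and 0.90 (adjusted p = 0.0165).

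LYZ is a marker of myeloid cells, and the list of 13 such markers was therefore read as a whole. Their summed level was 26.5 to 41.4 CPM in shGLP, 6.77 to 15.3 CPM in shHP1γ, 8.76 to 19.5 CPM in shNS and 12.4 to 22.1 CPM in shG9a libraries. The defining markers ELANE, CSF1R, CSF3R, S100A8, S100A9, ITGAM and FCGR3A were at 0 in all 12 libraries. A count of 0 does not show absence here, for these or for the T cell markers below. Of the accessions of genes with several, 73.6% were at 0 in every library, and the pre-B markers CD79B, DNTT, CD22 and CD24 were at 0 as well. Of the 13 myeloid markers, 3 were abundant enough to test. Beside LYZ these were MPO (-1.43, adjusted p = 0.00366, 2.24 ± 1.23 and 0.773 ± 0.276 CPM) and CTSG (-0.56, adjusted p = 0.04, and -0.23 with an adjusted p of 0.288 without both shHP1γ replicate 1 libraries). In bulk RNA, more cells of a type and more RNA per cell cannot be told apart, and a part of other cell types in these results was not tested. T cell markers summed to 22.7 to 30.4 CPM in shGLP and 17.5 to 26.1 CPM in shHP1γ libraries, with CD3D, CD8A, CD8B, CD2 and CD28 at 0 and ZAP70 as the tested member (-0.34, adjusted p = 0.02, -0.18 with an adjusted p of 0.222 without both shHP1γ replicate 1 libraries).

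Further transcripts with large differences in this direction came from unrelated families. MUC19, a mucin gene, differed by -2.17, RAB27B, a GTPase of vesicle secretion, by -1.92, the adrenergic receptor gene ADRB3 by -1.57 and the axon guidance gene SEMA5A by -1.53. The potassium channel gene KCNA6 differed by -1.37, SMIM24 by -1.20, the cytokine gene IL1B by -1.15 and the noncoding RNAs LINC01559 and LINC01262 by -1.48 and -1.24. TFAP2C, an AP-2 transcription factor, was at 11.9 ± 4.29 CPM in shGLP, 4.55 ± 2.53 CPM in shHP1γ and 3.07 CPM in shG9a cells (-1.44, SE 0.144, adjusted p = 1.8e-07), so that in this gene shG9a lay on the other side of shNS (6.9 CPM) from shGLP. Transcripts with means of at least 20 CPM and smaller differences included ANKRD44 (-0.66), the autophagy gene DRAM1 (-0.63) and the phosphatase gene UBASH3B (-0.63).

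**Figure D4:**
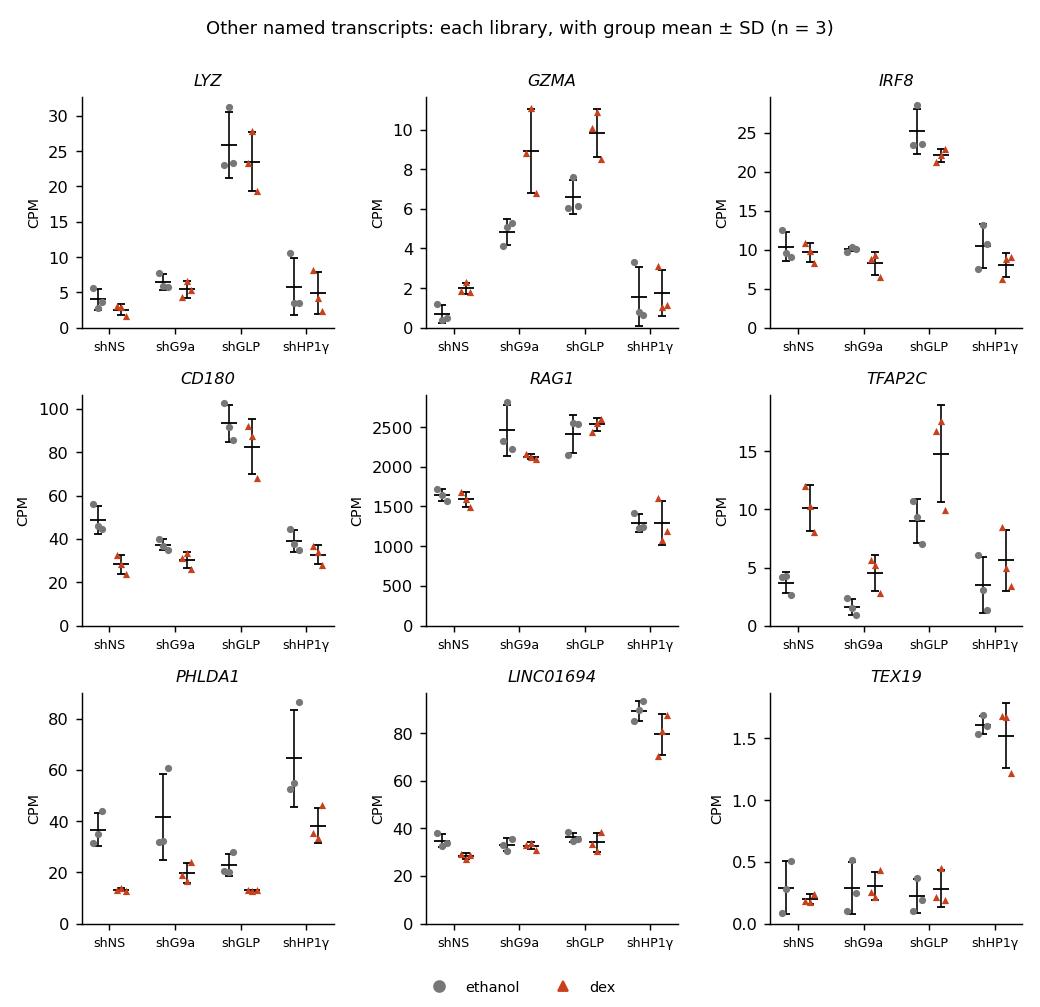
Levels in CPM (vertical axes) of 9 genes outside the zinc finger family in each library of the 4 shRNAs, with ethanol as circles, dex as triangles and the mean ± SD of 3 replicates as a bar with whiskers. LYZ, GZMA, IRF8, CD180, RAG1 and TFAP2C have lower means in shHP1γ than in shGLP cells, and PHLDA1, LINC01694 and TEX19 higher ones.

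Interferon-stimulated genes, which the antiviral response switches on, had 9 of 43 tested transcripts (20.9%) lower and 2 (4.65%) higher in shHP1γ cells, against 4.94% and 5.71% of all transcripts, with a median of -0.076. The oligoadenylate synthetase OAS3, which senses double-stranded RNA, was at 66.1 ± 4.73 CPM in shGLP, 49 ± 10.5 CPM in shHP1γ and 40.8 CPM in shNS cells (-0.44, SE 0.078, adjusted p = 0.000347). The 2 tested transcripts of OAS2 differed by -0.36 and -0.33, the ubiquitin ligase gene DTX3L by -0.27 and the antiviral GTPase gene MX2 by -0.45 (adjusted p = 0.0137). PLSCR1 went the other way (0.51, adjusted p = 6.62e-06), as did GBP4 (0.53, adjusted p = 0.0427). GBP4 stood at 1062 and 1205 CPM in the replicate 1 libraries of shHP1γ and at 420.2 to 514.7 CPM in its other 4 libraries, and without those 2 libraries the difference was 0.05 (adjusted p = 0.628). The number of members called lower ran from 5 to 13 over all alternatives.

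Lists of the cell cycle had few calls, where 4.94% of all tested transcripts were lower and 5.71% higher. In S-phase and replication genes 5 of 42 tested transcripts (11.9%) were lower and 0 higher (median -0.129), among them E2F7, a repressor of E2F targets (-0.51, adjusted p = 7.57e-05). Without both shHP1γ replicate 1 libraries 4 were higher and 1 lower, so that this direction rested on those libraries. Mitotic genes had 2 of 34 (5.88%) lower, MAD2L1 and BUB3, and 0 higher (median -0.101), with the lower share close to that of all tested. Without both shHP1γ replicate 1 libraries MAD2L1 differed by -0.10 (adjusted p = 0.214), and 0 members were lower without the replicate block or without the replicate 3 libraries. Of 43 transcripts of MYC and ribosome biogenesis genes 0 were called (median -0.061). In p53 targets 1 of 20 was higher, in sterol and fatty acid synthesis 2 of 23, in glycolysis 1 of 23 was lower (PGK1, -0.21), and in the BCL2 family 1 of 10 was lower (BIK, a BH3-only activator of cell death, -0.48, adjusted p = 0.00278). Histone genes had 2 of 57 higher (0 without both shHP1γ replicate 1 libraries) and 1 lower, MHC class II genes 0 of 3, NF-κB targets 1 of 11 in each direction, and the E2F6 repressor complex 1 of 10 lower, which was again CBX3.

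**Figure D5:**
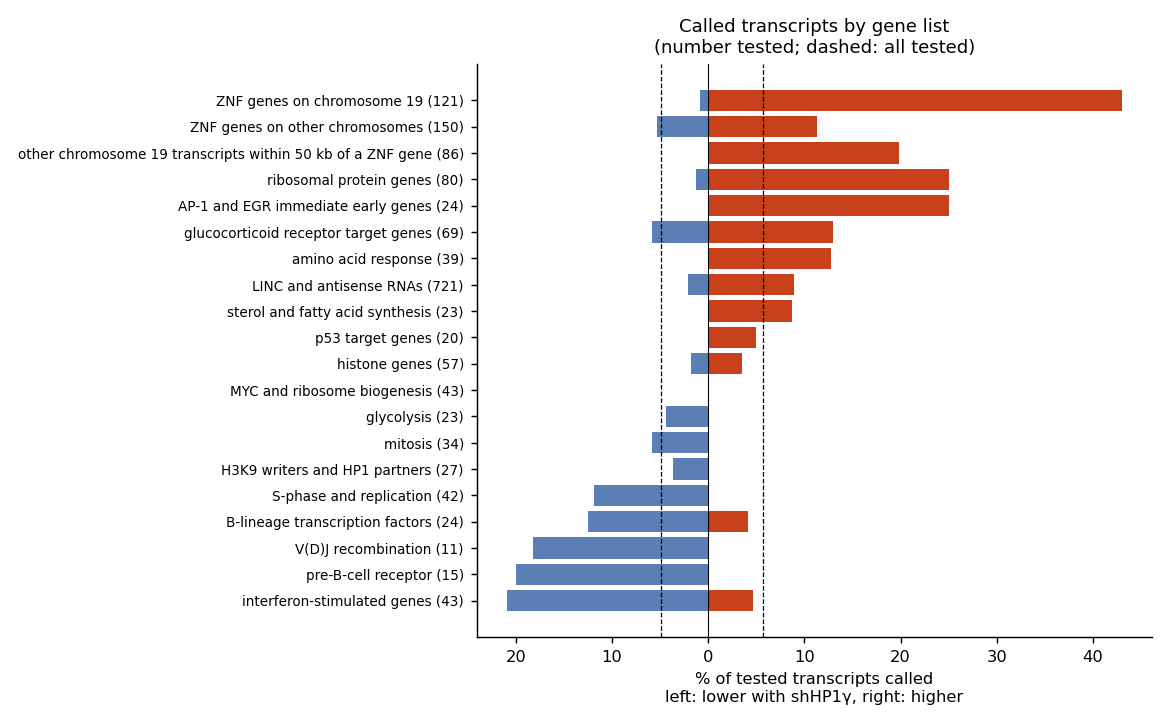
Share of tested transcripts called higher (to the right) or lower (to the left) in shHP1γ than in shGLP cells for the larger gene lists, in percent of the tested members, with dashed lines at the shares over all tested transcripts. ZNF genes on chromosome 19 have 43% higher, ribosomal protein and immediate early genes 25%, and interferon-stimulated genes 20.9% lower.

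Genes that the glucocorticoid receptor regulates bear on the coactivator question of the study. Of 69 tested transcripts of such genes, 9 (13%) were higher and 4 (5.8%) lower in shHP1γ cells. The shares over all tested transcripts were 5.71% and 4.94%, so the share called lower was close to that of all. The median of the list was 0.139. TSC22D3, the leucine zipper gene GILZ that glucocorticoids induce in lymphocytes, was measured best by its transcript NM_004089. In dex it stood at 56, 56.4 and 39.6 CPM in shGLP and 111.6, 60 and 56.3 CPM in shHP1γ cells, and in ethanol at 6.57, 6.65 and 3.12 CPM and 8.33, 7.04 and 5.08 CPM. Over both treatments it differed by 0.44 (SE 0.127, adjusted p = 0.027), and without both shHP1γ replicate 1 libraries by 0.27 (adjusted p = 0.171). Both depletions had lower means than shNS (48.5 CPM over 6 libraries), and the decrease passed the test after GLP depletion (-0.70, adjusted p = 0.000316) and not after HP1γ depletion (-0.26, adjusted p = 0.185). These tests average ethanol and dex. The study compared dex-treated cells, counted TSC22D3 as dependent on G9a, GLP and HP1γ, and reported a decrease by RT-qPCR after each depletion. In dex, shNS cells stood at 98.9, 86.8 and 81.4 CPM, so shHP1γ cells were above shNS in replicate 1 and below it in replicates 2 and 3.

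The other genes measured by RT-qPCR in the study mostly did not separate the 2 depletions. Of these, the study counted TXNIP and LILRA2 as dependent on G9a, GLP and HP1γ. Its RT-qPCR of FKBP5 was done in lung adenocarcinoma cells and not in these depleted Nalm6 cells. ZNF831 differed by 0.73 (adjusted p = 0.011), and by 0.23 (adjusted p = 0.182) without both shHP1γ replicate 1 libraries. The main transcript of TXNIP, NM_006472, differed by -0.01 (SE 0.070, adjusted p = 0.956), and it was lower than shNS by a log2 difference of -0.50 after HP1γ depletion (adjusted p = 2.76e-05) and -0.49 after GLP depletion (adjusted p = 2.05e-05). FKBP5 differed by -0.06 (adjusted p = 0.835), and the tested transcripts of LILRA2, LDLRAD4 and ARHGAP6 had adjusted p values between 0.0712 and 0.991. With counts summed per gene symbol LILRA2 was lower in shHP1γ cells (-0.76, adjusted p = 0.0442). UBASH3B, which is among the 69 glucocorticoid receptor targets and not among the RT-qPCR genes, stood at 347.7, 397.1 and 426.1 CPM in ethanol and 729.9, 726.3 and 800.6 CPM in dex in shGLP cells, and at 194.4, 269.8 and 262.1 CPM and 414.6, 553.7 and 562.5 CPM in shHP1γ cells, and was lower in shHP1γ cells in each treatment.

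Whether dex changed the difference between the 2 depletions was tested as an interaction. In edgeR 0 of 10167 transcripts (0%) passed an adjusted p of 0.05, with 196 at an unadjusted p under 0.05, and DESeq2 and limma also gave 0, with 71 and 217 at an unadjusted p under 0.05. The differences in ethanol and dex were close for CD180 (-1.26 and -1.33), RAG1 (-0.91 and -0.98), ZNF134 (1.55 and 1.60), ZNF626 (3.11 and 3.26) and PHLDA1 (1.48 and 1.56). They lay farther apart for GRID1 (4.04 and 2.60) and MPO (-1.77 and -1.08). A p that misses the threshold does not show that the 2 values are equal. For ZNF134 the interaction was 0.05 on the log2 scale.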

How the data were processed

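RNA was sequenced as paired-end reads of 75 bp. According to the methods, the authors used HISAT2 to map trimmed reads to hg19 (GRCh37), counted them on RefSeq genes with GenomicAlignments and then applied upper quartile normalization, a filter, removal of unwanted variation and edgeR. The deposited table is named for CPM but holds whole-number counts, with different totals per library, and was used as raw counts per RefSeq accession. The RefSeq release, strand handling and the fate of multi-mapping reads are not given in the sources used here. A deposited table of the authors' own comparisons (log2 fold changes and FDR for 4 contrasts) was used for gene symbols alone.

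The table has 64519 accessions, of which 9872 were named from the authors' table, 53873 from a RefSeq gene table, and 774 were left unnamed. Positions came from GENCODE lifted to GRCh37 for 95.1% of tested transcripts, and promoters from RefSeq on GRCh38.p14. Transcripts with more than 1 CPM in at least 2 libraries were kept. In R 4.3.3, edgeR 4.0.16 was fitted to all 24 libraries with upper quartile factors, the 8 groups and the replicate number as a block (residual df 14), and p values of its quasi-likelihood F tests received Benjamini-Hochberg adjustment across the 10167 transcripts, with calls at 0.05 or less. SE is the absolute log2 fold change over the square root of F. The block was used because the labels place replicates on different days. Deviations of same-numbered shHP1γ and shGLP libraries from their group means correlated across transcripts with r from 0.0141 to 0.5139. DESeq2 1.42.0 and limma 3.58.1 were alternatives, and the model was tested on simulated data. No library duplicated another replicate of its own group (chi-squared per degree of freedom of at least 3.43), and pairs across groups were not checked. Counts have no molecular identifiers, so limits from counts (a floor of 3 counts per library) cover counting error only.

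The comparison, its members and the gene lists were chosen with earlier results of these data known. Named genes are the depleted genes, the 14 largest differences each way among called transcripts with at least 2 CPM on average and the same sign in 6 of 6 pairs, the 8 largest each way with at least 20 CPM, up to 4 called members of each list with the smallest adjusted p, any interaction calls, and the genes of the study's RT-qPCR. Others were chosen after their values were seen. Some genes under this rule are not reported here. Lists are described by counts and medians, with no test of the list.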

Additional observations from a re-analysis of the deposited data

Results flagged for a closer look

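In 1 low-count transcript of TSC22D3, NM_001015881, the difference of shHP1γ from shGLP was opposite in the 2 treatments. In ethanol all 3 pairs were lower in shHP1γ cells (0.308, 0.277 and 0.0947 CPM in shGLP, 0, 0.0992 and 0 CPM in shHP1γ), and in dex all 3 pairs were higher (1.8, 0.724 and 0.56 CPM in shGLP, 2.57, 1.44 and 1.6 CPM in shHP1γ). The difference in dex minus that in ethanol was 3.33 on the log2 scale, with an adjusted p of 1 in the interaction test of edgeR. The ethanol libraries held at most 3 counts each, so the ethanol difference lies at the floor.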

How the results depend on the processing

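With the replicate block left out, the calls between shHP1γ and shGLP cells numbered 600 over both treatments (1083 with the block), 199 in ethanol (427) and 207 in dex (409), and those against shNS 507 for HP1γ (1020) and 565 for GLP (1019). With no filter on low counts 3 transcripts had an interaction in place of 0. Leaving out all libraries of 1 replicate number gave 429 to 991 calls over both treatments, 117 to 276 in ethanol, 113 to 278 in dex, 335 to 756 for HP1γ and 369 to 771 for GLP against shNS. Leaving out 1 library gave 780 to 1070, 256 to 504, 234 to 459, 855 to 988 and 828 to 1121, and the interaction gave 0 in each case. These counts were lowest without replicate 3, and the cause was not tested. Leaving out both shHP1γ replicate 1 libraries, an alternative chosen after seeing the data, gave 944 calls over both treatments. Leaving out shG9a dex replicate 2, also chosen after seeing the data, gave 1369 over both treatments, 607 in ethanol, 545 in dex, and 1302 for HP1γ and 1252 for GLP against shNS. TMM scaling, DESeq2, limma, an RUV factor in place of the replicate number and the 12 libraries alone gave 1011 to 1116.

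The share of calls that were higher in shHP1γ cells was 53.6%, 42.1% with no filter, 61.6% with a mean of at least 5 CPM and 61.7% with counts summed per gene symbol, so the balance of directions depends on which transcripts are tested. Of the 104 named called transcripts, 67 were called under every alternative in which they were tested. Summing per symbol reversed SLC1A5 (from 0.45 to -0.049, adjusted p = 0.796) and TSC22D3 transcript NM_001015881 (from -0.78 to 0.44, adjusted p = 0.0249), since other isoforms then enter the sum. Genes with several isoforms are measured by few reads, which limits the size of difference that their counts can show.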
